A study of Xenopus laevis with 14 samples.

Results

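Radial glia line the ventricles of the vertebrate brain and act as neural stem cells, giving rise to neurons and glia. In the *Xenopus* tadpole they persist along the ventricles and keep dividing as the brain grows. Their identity rests on Sox transcription factors, they carry vimentin and nestin intermediate filaments and the lipid carrier Fabp7, and RNA-binding proteins of the Musashi family restrain their differentiation. The genes described here are *sox2*, *sox3*, *sox9*, *fabp7*, *vim*, *nes*, *msi1*, *msi2*, *gli3* and *prom1*. They were taken by symbol from the count table: a row was a member if its symbol without the suffix .L or .S was one of these 10. *X. laevis* is allotetraploid, and many of its genes are present as an L and an S copy (homeologs) on 2 subgenomes. This gave 18 rows of 26807, with both copies of 8 genes and the L copy of *fabp7* and *prom1*.

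RNA was sequenced from whole brains of *X. laevis* tadpoles at stage 47, in 14 libraries of 6 pooled brains each. All embryos came from 2 females and were injected with Cas9 protein. The control group (5 libraries) received a scrambled guide RNA without a target, the *ap3b2* CRISPant group (4 libraries) a guide against *ap3b2*, which by the study's methods cuts the S copy, and the *eef1a2* CRISPant group (5 libraries) a guide against *eef1a2*. *ap3b2* encodes a subunit of the neuronal AP-3 adaptor complex and *eef1a2* a translation elongation factor, and variants of both human genes are linked to developmental and epileptic encephalopathies. CRISPants are F0 animals in which the edit is mosaic, so every pool held edited and unedited cells. The libraries are separate pools, and p-values measure the spread between pools.

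The libraries held 36563581 to 46745977 pairs assigned to genes. Levels are given as CPM, counts scaled to a library of 1000000, and 1 CPM was worth 36.6 to 46.7 counts. CPM values are also scaled by TMM, edgeR's correction for library composition. Short edits need not change the level of a transcript, so these levels do not check the labels: *ap3b2.S* lay at 70.1 to 75.0 CPM in control, 61.9 to 79.7 in *ap3b2* CRISPant and 64.6 to 75.9 in *eef1a2* CRISPant libraries. *eef1a2.S* lay at 372 to 444, 405 to 477 and 368 to 435 CPM in the same order, and *eef1a2.L* at 137 to 158, 143 to 163 and 123 to 173. *ap3b2.L* lay at 117 to 133 CPM in control, 64.4 to 113 in *ap3b2* CRISPant and 55.1 to 107 in *eef1a2* CRISPant libraries, below every control in both. The members were expressed in all libraries, at 6.69 CPM or more apart from *prom1.L*, beside 551 to 695 CPM of the neuronal gene *snap25.L*. Libraries within a group differed. For the members that fell, replicate 4 of the *ap3b2* CRISPants, replicate 2 of the *eef1a2* CRISPants and replicate 4 of the controls mostly lay nearest to the opposite group. For some members, results are also given without 1 of these libraries. The libraries were singled out from these same values, so leaving 1 out tends to widen a difference. A call gained that way adds no support. In bulk tissue, fewer cells of a type and less RNA per cell cannot be told apart.

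A member was called at an FDR (Benjamini-Hochberg adjusted p over all genes tested, edgeR quasi-likelihood test) below 0.05. In *ap3b2* CRISPant against control brains, all 18 members were tested among 20800 genes. 4 members were lower (22.2%), beside 22.8% of all genes tested, and 5 were higher (27.8%), beside 20.0% of all genes. The share that was lower was thus close to that of the whole transcriptome. At the study's own threshold, which adds a fold change above 2, 3 members passed (16.7%), all of them lower, beside 5.19% of all genes. These were both copies of *msi2*, just past 2-fold (log2 fold changes -1.05 and -1.06), and *prom1.L*, which had few counts. The *msi2* copies belong to a single gene and moved together, and *prom1.L* passed the filter on low counts through the controls. The share past 2-fold thus rests on few genes and is no result about the members as a group. The count past 2-fold was 1 with some single libraries left out or with the trend with gene span removed. The median log2 fold change was 0.15 over the members and 0.03 over all genes tested.

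In *eef1a2* CRISPant against control brains, all 18 members were tested among 20682 genes. Again 4 were lower (22.2%), beside 21.4% of all genes, and 5 were higher (27.8%), beside 18.8% of all genes. 1 member passed the 2-fold threshold (5.56%), beside 5.32% of all genes. The median log2 fold change was 0.07 over the members and 0.03 over all genes. Both comparisons used the same 5 control libraries, so their values stand side by side and are not independent. Scaling moved the split of calls over all genes. Of the genes called in *ap3b2* CRISPants, 53.3% were lower, against 67.8% with scaling by library size alone and 41.8% once each library's trend with the span of genes had been removed. For *eef1a2* CRISPants these shares were 53.3%, 68.6% and 39.9%.

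**Figure D1:**
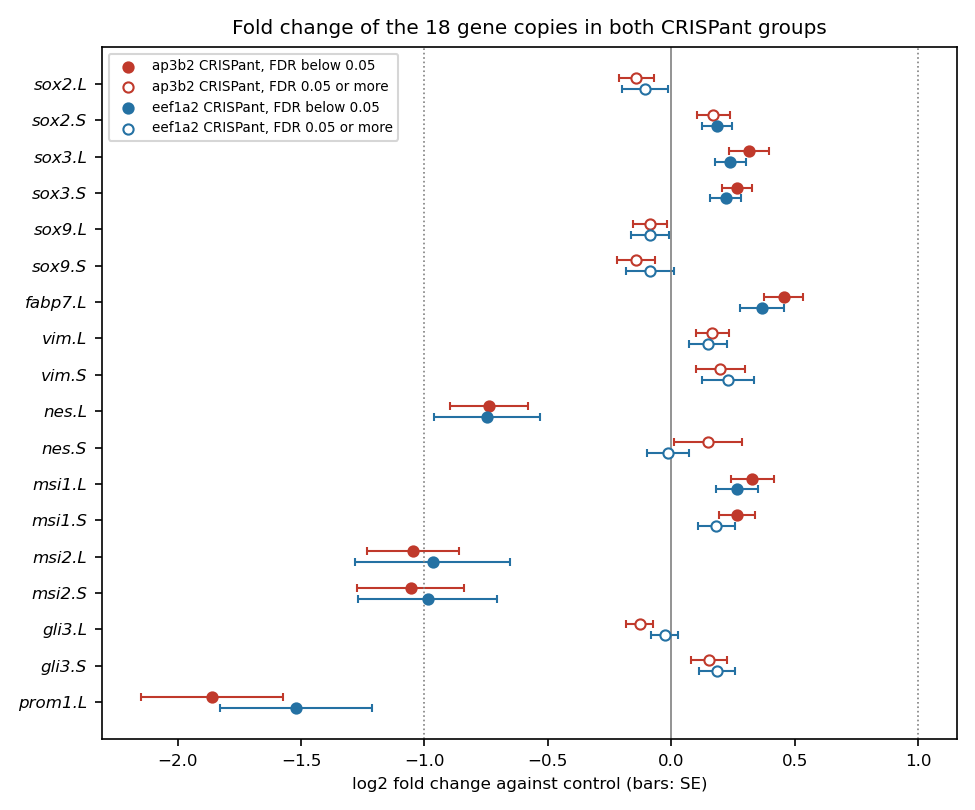
Log2 fold change against control (x axis, bars are SE) of each of the 18 gene copies (y axis) in *ap3b2* CRISPants (red, n = 4) and *eef1a2* CRISPants (blue, n = 5), 5 controls. Filled points have an FDR below 0.05 and dotted lines mark a 2-fold change. *prom1.L*, both *msi2* copies and *nes.L* lie to the left, and no copy lies beyond 0.46 to the right.

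*prom1* encodes prominin-1 (CD133), a pentaspan membrane protein of cell protrusions and a marker of neural stem cells in mammals. It had the largest fall among the members in both comparisons. In control replicates 1 to 5, *prom1.L* stood at 2.61, 2.91, 2.45, 2.89 and 3.51 CPM. In *ap3b2* CRISPant replicates 1 to 4 it stood at 0.61, 0.74, 0.39 and 1.36 CPM. In *eef1a2* CRISPant replicates 1 to 5 it stood at 0.69, 1.69, 0.36, 1.22 and 1.00 CPM. Every CRISPant library lay below every control, and the highest values of each CRISPant group were those of *ap3b2* replicate 4 and *eef1a2* replicate 2. The transcript was rare throughout, with 116 to 162 counts per control library and 14 to 72 per CRISPant library. *prom1.L* fell to 27.5% of the control level in *ap3b2* CRISPants, a log2 fold change of -1.86 (SE 0.29, FDR 0.00292 by edgeR). In *eef1a2* CRISPants it fell to 34.8%, a log2 fold change of -1.52 (SE 0.31, FDR 0.00793 by edgeR). Without *ap3b2* replicate 4 the log2 fold change was -2.29, and without *eef1a2* replicate 2 it was -1.80. With replicates 1 to 3 alone, the change in *eef1a2* CRISPants was -1.52 and no longer passed (FDR 0.0651). *prom1.L* was at or below 1 CPM in 3 libraries of each comparison, so it passed the filter on low counts through the controls.

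The Musashi proteins bind RNA and repress the translation of differentiation factors. Both copies of *msi2* fell while *msi1.L* rose. In control replicates 1 to 5, *msi2.L* stood at 33.9, 31.4, 29.8, 20.7 and 27.3 CPM. In *ap3b2* CRISPant replicates 1 to 4 it stood at 11.3, 13.1, 11.01 and 19.7 CPM. In *eef1a2* CRISPant replicates 1 to 5 it stood at 13.3, 29.0, 6.69, 12.6 and 11.3 CPM. The *ap3b2* CRISPant and control libraries did not overlap, while *eef1a2* replicate 2 lay inside the control range. *msi2.L* fell to 48.4% of the control level in *ap3b2* CRISPants (log2 fold change -1.05, SE 0.19, FDR 0.00300 by edgeR). In *eef1a2* CRISPants it fell to 51.1% (log2 fold change -0.97, SE 0.31, FDR 0.0302 by edgeR).

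The S copy of *msi2* fell as the L copy did. It stood at 36.8, 35.7, 32.6, 21.7 and 32.4 CPM in control replicates 1 to 5, and at 10.00, 15.5, 13.1 and 22.3 CPM in *ap3b2* CRISPant replicates 1 to 4. It stood at 15.1, 28.5, 7.70, 15.2 and 13.6 CPM in *eef1a2* CRISPant replicates 1 to 5. Replicate 4 of the *ap3b2* CRISPants lay just above the lowest control, replicate 4, and *eef1a2* replicate 2 lay above that control as well. *msi2.S* fell by 1.06 on the log2 scale in *ap3b2* CRISPants (SE 0.22, FDR 0.00414 by edgeR) and by 0.99 in *eef1a2* CRISPants (SE 0.28, FDR 0.0182). Without *ap3b2* replicate 4 the falls were 1.27 for *msi2.L* and 1.30 for *msi2.S*. Over all single omissions in that comparison the log2 fold changes reached up to -0.95 and -0.90, and both copies passed the FDR each time. Both missed the 2-fold threshold without control replicate 1, *ap3b2* replicate 1 or *ap3b2* replicate 3. Without *eef1a2* replicate 2 the falls in *eef1a2* CRISPants were 1.38 and 1.30, and both copies then passed the 2-fold threshold. The call of *msi2.L* in *eef1a2* CRISPants was lost when any of 7 other libraries was left out (FDR up to 0.0727). With replicates 1 to 3 alone, *msi2.L* and *msi2.S* missed the threshold in *eef1a2* CRISPants (FDR 0.161 and 0.106).

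*msi1* is the Musashi gene most used as a marker of neural stem cells. It was modestly higher. In control replicates 1 to 5, *msi1.L* stood at 151, 147, 133, 172 and 163 CPM. In *ap3b2* CRISPant replicates 1 to 4 it stood at 216, 202, 175 and 173 CPM, just above the highest control in the lowest library. In *eef1a2* CRISPant replicates 1 to 5 it stood at 178, 156, 209.9, 187 and 193 CPM. *msi1.L* rose by 0.33 on the log2 scale in *ap3b2* CRISPants (SE 0.09, FDR 0.0129 by edgeR) and by 0.27 in *eef1a2* CRISPants (SE 0.09, FDR 0.0287). The call in *eef1a2* CRISPants was lost when control replicate 1, 2 or 3 or *eef1a2* replicate 3 or 5 was left out (FDR 0.0539 to 0.0656), and with replicates 1 to 3 alone (FDR 0.0651). *msi1.S*, at 118 to 143 CPM in control brains, rose by 0.27 in *ap3b2* CRISPants (SE 0.07, FDR 0.0133) to 142 to 166 CPM, and lost its call without *ap3b2* replicate 2 (FDR 0.0517). In *eef1a2* CRISPants *msi1.S* did not pass the test, with a log2 fold change of 0.18 (SE 0.07, FDR 0.0727), and it passed without *eef1a2* replicate 2 (FDR 0.0217) or control replicate 4 (FDR 0.0365).

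**Figure D2:**
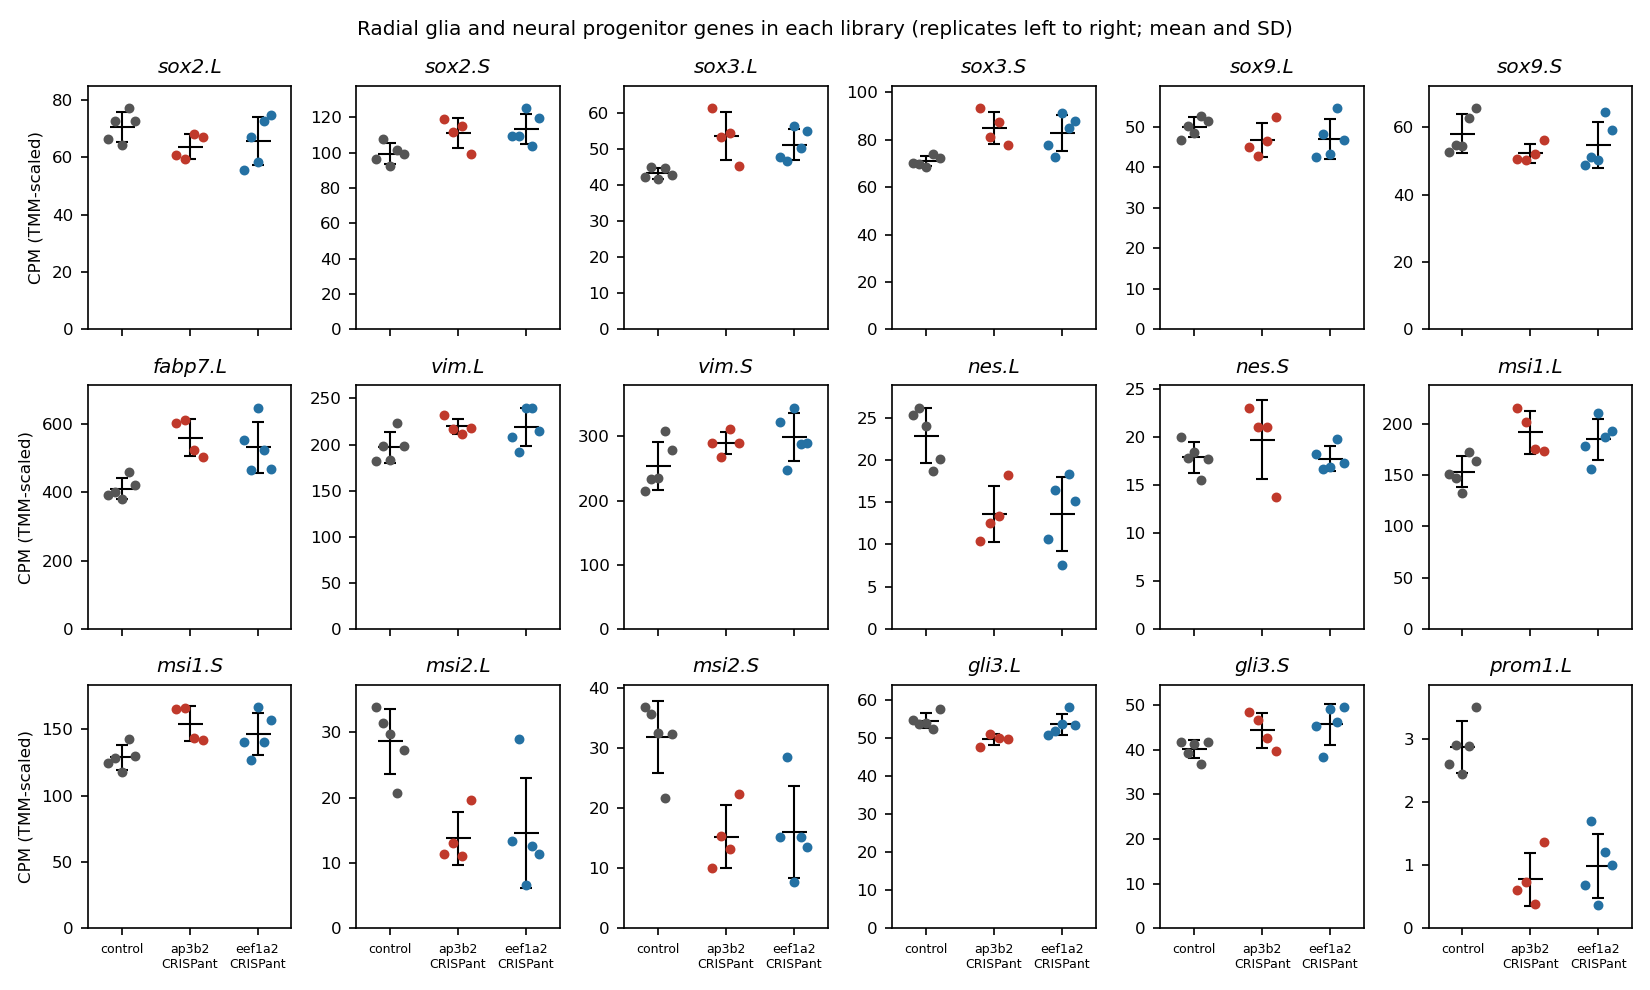
Level of each of the 18 gene copies in each library (y axis, TMM-scaled CPM from 0), with control (grey, n = 5), *ap3b2* CRISPant (red, n = 4) and *eef1a2* CRISPant (blue, n = 5) libraries on the x axis. Points are libraries in replicate order and the bars are the mean and SD. For *prom1.L* the CRISPant libraries reach at most 1.69 CPM and the controls at least 2.45 CPM, and for *fabp7.L* all CRISPant libraries lie above all controls.

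*vim* and *nes* encode the intermediate filaments vimentin and nestin, which build the cytoskeleton of the radial process. The 2 copies of *nes* did not move alike. In control replicates 1 to 5, *nes.L* stood at 25.4, 26.2, 23.99, 18.7 and 20.1 CPM. In *ap3b2* CRISPant replicates 1 to 4 it stood at 10.4, 12.49, 13.4 and 18.2 CPM. In *eef1a2* CRISPant replicates 1 to 5 it stood at 10.6, 16.4, 7.57, 18.3 and 15.1 CPM. Every CRISPant library lay below every control, though the highest of each group came close to control replicate 4. *nes.L* fell to 59.9% of the control level in *ap3b2* CRISPants (log2 fold change -0.74, SE 0.16, FDR 0.00497 by edgeR) and to 59.6% in *eef1a2* CRISPants (log2 fold change -0.75, SE 0.21, FDR 0.0189). Without *ap3b2* replicate 4 the fall was 0.91, and with replicates 1 to 3 alone it was 1.07 in *ap3b2* and 1.12 in *eef1a2* CRISPants. Replicates 1 to 3 lack the lowest control and the highest library of each CRISPant group, so this choice also widens the difference.

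The S copy stood at 19.9, 17.8, 18.4, 15.5 and 17.7 CPM in control replicates 1 to 5. It stood at 23.0, 21.0, 21.0 and 13.7 CPM in *ap3b2* CRISPant replicates 1 to 4, of which 3 lay above every control and replicate 4 below every control. In the 5 *eef1a2* CRISPant libraries it ranged from 16.6 to 19.7 CPM, within the control range. *nes.S* had a log2 fold change of 0.15 in *ap3b2* CRISPants (SE 0.14, FDR 0.401 by edgeR) and of -0.01 in *eef1a2* CRISPants (SE 0.09, FDR 0.916). Without *ap3b2* replicate 4 it was 0.29 and passed the test (FDR 0.0157). With the counts of L and S summed, *nes* was lower in both comparisons, by 0.30 in *ap3b2* CRISPants (SE 0.09) and by 0.38 in *eef1a2* CRISPants (SE 0.12), both with an FDR below 0.05.

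Neither copy of *vim* passed the test with all libraries, and whether they did turned on single libraries. *vim.L* lay at 182 to 224 CPM in control, 212 to 232 in *ap3b2* CRISPant and 192 to 240.1 in *eef1a2* CRISPant libraries, so the groups overlapped. Its log2 fold change was 0.17 in *ap3b2* CRISPants (SE 0.07, FDR 0.0670 by edgeR) and 0.15 in *eef1a2* CRISPants (SE 0.08, FDR 0.135). *vim.S*, at 215 to 308 CPM in the controls, had log2 fold changes of 0.20 (SE 0.10, FDR 0.124) and 0.23 (SE 0.11, FDR 0.106). Control replicate 4 had the highest level of both copies among the controls, so leaving it out raises their fold changes. Without control replicate 4, both copies passed as higher: *vim.L* by 0.21 in *ap3b2* (FDR 0.00969) and 0.20 in *eef1a2* CRISPants (FDR 0.0459), and *vim.S* by 0.28 (FDR 0.0186) and 0.31 (FDR 0.0291). Without *eef1a2* replicate 2 they passed in *eef1a2* CRISPants as well (FDR 0.0474 and 0.0364). With replicates 1 to 3 alone, which also lack control replicate 4, they passed in *ap3b2* CRISPants (FDR 0.00493 and 0.000775). In *eef1a2* CRISPants they did not pass with these replicates (FDR 0.128 and 0.0524).

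*fabp7* encodes the brain fatty acid binding protein of radial glia. It had the largest rise among the members. In control replicates 1 to 5, *fabp7.L* stood at 393, 401, 379, 460.4 and 421 CPM. In *ap3b2* CRISPant replicates 1 to 4 it stood at 603, 611, 524 and 503 CPM. In *eef1a2* CRISPant replicates 1 to 5 it stood at 554, 465, 649, 526 and 468 CPM. All CRISPant libraries lay above all controls, with *eef1a2* replicate 2 only just above control replicate 4. *fabp7.L* rose 1.37-fold in *ap3b2* CRISPants (log2 fold change 0.45, SE 0.08, FDR 0.00300 by edgeR) and 1.29-fold in *eef1a2* CRISPants (log2 fold change 0.37, SE 0.09, FDR 0.0108). Omitting any single library gave log2 fold changes of 0.41 to 0.51 in *ap3b2* CRISPants and of 0.30 to 0.42 in *eef1a2* CRISPants, which passed each time.

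*sox2* and *sox3* encode SoxB1 transcription factors, which hold cells in the progenitor state. Both copies of *sox3* rose in both comparisons. *sox3.L* stood at 42.1, 45.0, 41.8, 44.7 and 42.8 CPM in control replicates 1 to 5, and at 61.3, 53.2, 54.5 and 45.2 CPM in *ap3b2* CRISPant replicates 1 to 4. The *eef1a2* CRISPant replicates 1 to 5 had 47.7, 46.8, 56.3, 50.3 and 54.9 CPM. No CRISPant library reached down to the controls, which spanned only 41.8 to 45.0 CPM. The rise of *sox3.L* was 0.31 on the log2 scale in *ap3b2* CRISPants (SE 0.08, FDR 0.00945 by edgeR) and 0.24 in *eef1a2* CRISPants (SE 0.06, FDR 0.0128). *sox3.S* went from 68.7 to 74.2 CPM in the controls to 77.8 to 93.4 in *ap3b2* and 72.7 to 91.2 in *eef1a2* CRISPants, where replicate 2 lay inside the control range. Its rises were 0.27 (SE 0.06, FDR 0.00614) and 0.22 (SE 0.06, FDR 0.0175). With replicates 1 to 3 alone, *sox3.L* and *sox3.S* missed the threshold in *eef1a2* CRISPants (FDR 0.0823 and 0.0909).

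The 2 copies of *sox2* had fold changes of opposite sign. *sox2.S* stood at 96.3, 108, 92.5, 102 and 99.4 CPM in control replicates 1 to 5, and at 119, 112, 115 and 99.4 CPM in *ap3b2* CRISPant replicates 1 to 4. The level was 109, 109, 125, 104 and 119.5 CPM in *eef1a2* CRISPant replicates 1 to 5. Its log2 fold change in *ap3b2* CRISPants was 0.17 and did not pass (SE 0.07, FDR 0.0594 by edgeR), while in *eef1a2* CRISPants it rose by 0.19 (SE 0.06, FDR 0.0326). Without *ap3b2* replicate 4 the former was 0.22 and passed (FDR 0.00843). The latter lost its call when control replicate 1, 3 or 5 or *eef1a2* replicate 3 or 5 was left out (FDR 0.0547 to 0.0785), and with replicates 1 to 3 alone (FDR 0.0915). *sox2.L* ranged from 64.4 to 77.2 CPM in control, 59.4 to 68.0 in *ap3b2* CRISPant and 55.8 to 74.7 in *eef1a2* CRISPant libraries. Its log2 fold changes were -0.14 (SE 0.07, FDR 0.124) and -0.11 (SE 0.09, FDR 0.383). With L and S summed, *sox2* differed from control by 0.03 in *ap3b2* CRISPants (FDR 0.665) and by 0.07 in *eef1a2* CRISPants (FDR 0.379).

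*sox9* encodes a SoxE factor of radial glia and astrocytes. Neither copy passed the test in either comparison. *sox9.L* lay at 46.6 to 52.6 CPM in control, 42.8 to 52.5 in *ap3b2* CRISPant and 42.4 to 54.5 in *eef1a2* CRISPant libraries, with log2 fold changes of -0.09 in both (SE 0.07 and 0.08, FDR 0.332 and 0.382 by edgeR). *sox9.S* had log2 fold changes of -0.14 (SE 0.08, FDR 0.146) and -0.09 (SE 0.10, FDR 0.498).

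*gli3* encodes a transcription factor of the Hedgehog pathway that mostly acts as a repressor in its truncated form. *gli3.L* stood at 54.9, 53.9, 54.1, 52.4 and 57.8 CPM in control replicates 1 to 5, and at 47.7, 51.2, 50.2 and 49.7 CPM in *ap3b2* CRISPant replicates 1 to 4. Although all 4 *ap3b2* CRISPant libraries lay below every control, the difference was small and did not pass the test (log2 fold change -0.13, SE 0.05, FDR 0.0769 by edgeR). Without control replicate 4 it was -0.14 and passed (FDR 0.0481). In *eef1a2* CRISPants *gli3.L* lay at 50.8 to 58.3 CPM with a log2 fold change of -0.03 (SE 0.05, FDR 0.718). *gli3.S* had log2 fold changes of the other sign, 0.15 (SE 0.07, FDR 0.110) and 0.18 (SE 0.07, FDR 0.0639). It passed in *ap3b2* CRISPants without replicate 4, at 0.21 (FDR 0.0216), and in *eef1a2* CRISPants without replicate 2, at 0.25 (FDR 0.00697).

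The 2 CRISPant groups were also compared with each other, to ask whether the members differed between the 2 models. 17 members were tested among 20584 genes, since *prom1.L* was at or below 1 CPM in 6 of the 9 libraries and was removed by the filter. No member was called in either direction or past 2-fold, and neither was any other gene (0% of all genes tested, with edgeR and with DESeq2). At an unadjusted p below 0.05, 179 of the 20584 genes passed, and 0 members. With so few genes passing, 0 is no result about the members. Fewer genes passed than the share of 0.05 that chance alone would give. The test may thus be conservative here, and the absence of calls does not show that the groups are alike. The log2 differences (*ap3b2* minus *eef1a2*) ranged from -0.11 for *gli3.L* (SE 0.06) to 0.15 for *nes.S* (SE 0.14). For the members that fell, the differences were 0.00 for *nes.L* (SE 0.25), -0.09 for *msi2.L* (SE 0.36) and -0.08 for *msi2.S* (SE 0.34), and these errors leave room for a difference of either sign. For *fabp7.L* the difference was 0.07 (SE 0.11).

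Since the 2 copies of *sox2*, *nes* and *gli3* differed in their fold changes, the balance of each pair was computed as the share of L among the counts of L and S in each library. These shares do not depend on the scaling of libraries. In the controls L held 56.0% ± 2.37 (SD, n = 5) of the *nes* counts, with 56.0%, 59.6%, 56.6%, 54.8% and 53.2% in replicates 1 to 5. In *ap3b2* CRISPant replicates 1 to 4 it held 31.1%, 37.3%, 39.0% and 57.0%. In *eef1a2* CRISPant replicates 1 to 5 it held 36.8%, 49.6%, 31.0%, 48.2% and 46.8%. All *eef1a2* CRISPant libraries and 3 of the 4 *ap3b2* CRISPant libraries lay below every control, and *ap3b2* replicate 4 lay within the control range. The mean shares were 14.9 points lower in *ap3b2* CRISPants (exact permutation test over libraries, 2-sided p = 0.0397, adjusted p = 0.136) and 13.5 points lower in *eef1a2* CRISPants (exact p = 0.00794, adjusted p = 0.0635).

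For *sox2* the L share was 41.5% ± 1.17 (SD, n = 5) in the controls, 36.5% ± 2.90 (n = 4) in *ap3b2* CRISPants and 36.7% ± 3.82 (n = 5) in *eef1a2* CRISPants. The *ap3b2* CRISPant libraries ran from 33.8% to 40.28% and all lay below the controls, which ran from 40.31% to 43.2%, though the nearest libraries all but touched. For *gli3* the L share was 57.7% ± 0.83 (SD, n = 5), 52.9% ± 2.56 (n = 4) and 54.1% ± 2.49 (n = 5) in the same order, and all *ap3b2* CRISPant libraries were again below every control. The exact p in *ap3b2* CRISPants was 0.00794 for *sox2* and for *gli3* (adjusted p = 0.0635 for each), and in *eef1a2* CRISPants 0.0317 and 0.0238 (adjusted p = 0.127 for each). An exact p of 0.00794 is the smallest these numbers of libraries can give. The test was chosen after the values had been seen, and none of the 24 tests (8 pairs in 3 comparisons) passed 0.05 after adjustment. *nes*, *sox2* and *gli3* were brought forward for the differing fold changes of their copies, which come from the same counts. How often L shares failed to overlap over all homeolog pairs of the count table was not computed. These shifts may therefore not be particular to the members.

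The other pairs kept their balance more closely. The mean L share of *msi2*, whose copies fell together, was 47.4%, 47.8% and 46.9% in control, *ap3b2* and *eef1a2* CRISPant libraries. That of *sox3*, whose copies rose together, was 37.9%, 38.6% and 38.2%. The shares of *sox9* (46.3%, 47.1% and 46.2%) and *vim* (43.8%, 43.2% and 42.4%) differed by less than 1.5 points between groups. For *msi1* the mean L share was 54.3% in control and 55.8% in *eef1a2* CRISPant libraries (exact permutation p = 0.0317, adjusted p = 0.127). Reads of near-identical copies may have been assigned to either copy, so the level of a single copy is uncertain to that extent.

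**Figure D3:**
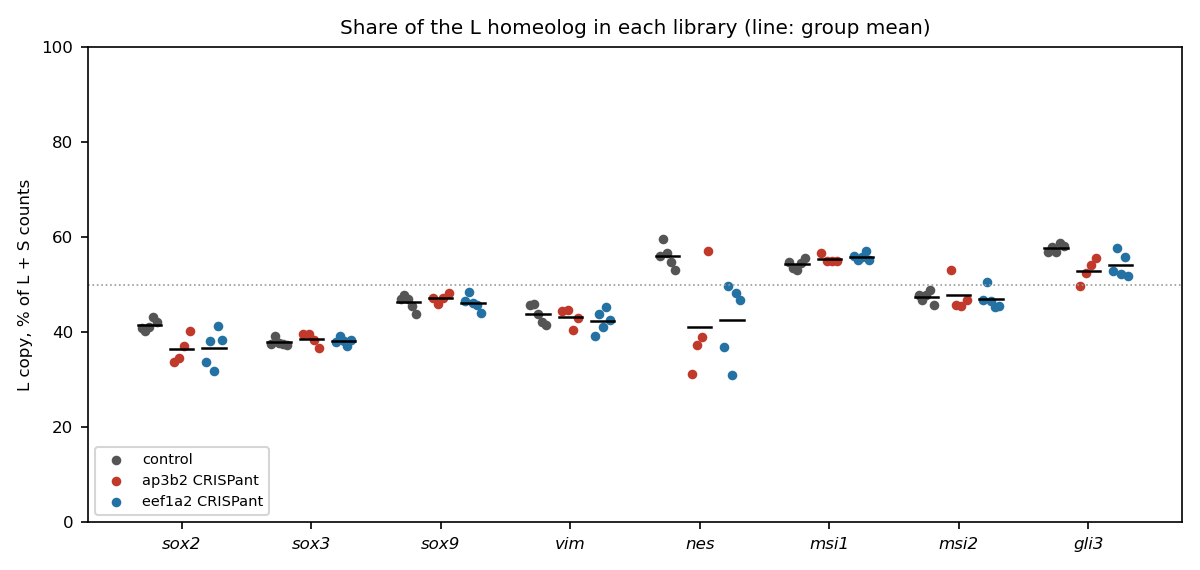
Share of the L copy among the counts of both copies (y axis, percent) for the 8 genes with both copies (x axis). Points are control (grey), *ap3b2* CRISPant (red) and *eef1a2* CRISPant (blue) libraries, and lines are group means. The *nes* shares spread from 31.0% to 57.0% in the CRISPants and from 53.2% to 59.6% in the controls.

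The members differ widely in gene span, the distance from start to end in the *X. laevis* v10.1 assembly, where 16 of them could be placed. *sox2.L*, on chromosome 5L from 114959594 to 114960783, spans 1.19 kb, and *sox3.L* (chromosome 8L, 46991470 to 46993062) and *sox3.S* (chromosome 8S, 63299041 to 63300658) span 1.59 and 1.62 kb. *fabp7.L* spans 3.79 kb (chromosome 5L, 67857129 to 67860920). *nes.L* spans 22.1 kb (chromosome 8L, 123619512 to 123641660) and *nes.S* 25.3 kb (chromosome 8S, 97783074 to 97808391). *prom1.L* spans 65.7 kb (chromosome 7L, 27693790 to 27759488), *gli3.L* 148 kb (chromosome 6L, 61032093 to 61179633) and *gli3.S* 165 kb (chromosome 6S, 51382716 to 51548047). *msi2.S* has the greatest span, 436 kb (chromosome 2S, 95393723 to 95829638). Of the placed members, those that fell span 22.1 kb or more and those that rose 25.9 kb or less, but *nes.L*, which fell, and *msi1.L*, which rose and spans 25.9 kb, are of like span.

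To see how far fold changes depend on gene span, the comparisons were repeated after the trend of each library with span had been removed. The size of the trend itself was not tabulated. Its removal moved the median log2 fold change over all genes from 0.03 to 0.09 in *ap3b2* and from 0.03 to 0.10 in *eef1a2* CRISPants. For *msi2.L* and *sox2.S*, which were not placed, the span of the other copy was used. In *ap3b2* CRISPants the log2 fold change was then -0.65 for *msi2.L* (FDR 0.00359 by edgeR), -0.66 for *msi2.S* (FDR 0.00639), -0.70 for *nes.L* (FDR 0.00415) and -1.62 for *prom1.L* (FDR 0.00266). These falls all still passed, but *msi2.L* and *msi2.S* no longer exceeded 2-fold, which left *prom1.L* as the member past that threshold. In *eef1a2* CRISPants the values were -0.62, -0.63, -0.69 and -1.30, and all 4 passed. *fabp7.L* was 0.29 (FDR 0.00534) and 0.23 (FDR 0.0333). Both copies of *gli3* then passed as higher: *gli3.S* became 0.54 (FDR 0.00283) in *ap3b2* and 0.57 (FDR 0.00653) in *eef1a2* CRISPants. *gli3.L* turned from -0.13 to 0.24 (FDR 0.0162) and from -0.03 to 0.33 (FDR 0.0120), so its direction depends on this step. *sox2.L* and *sox9.S* passed as lower in *ap3b2* CRISPants after this step, at -0.19 (FDR 0.0244) and -0.30 (FDR 0.00963). In *eef1a2* CRISPants *sox3.S* and *sox2.S* lost their calls, at 0.14 (FDR 0.0565) and 0.15 (FDR 0.0966), and *msi1.S* gained one, at 0.26 (FDR 0.0302).

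**Figure D4:**
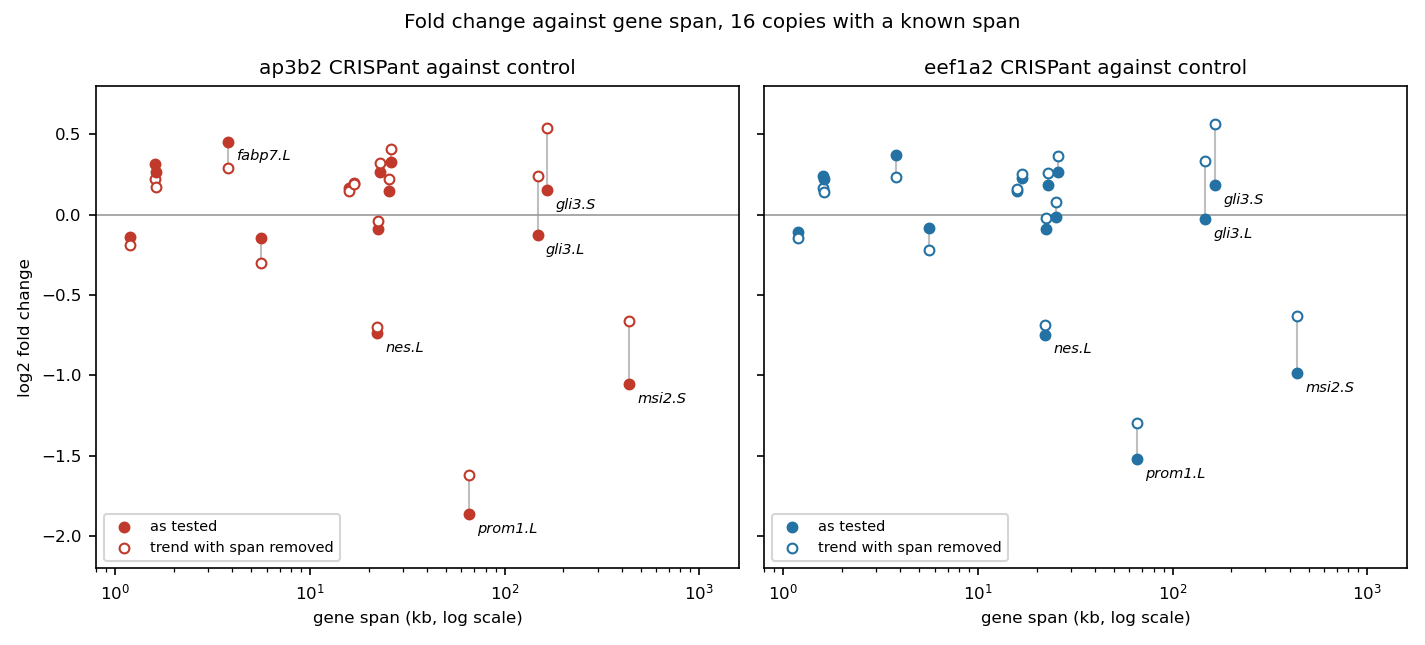
Log2 fold change against control (y axis) against gene span in kb (x axis, log scale) for the 16 copies with a known span, in *ap3b2* CRISPants (left) and *eef1a2* CRISPants (right). Filled points are as tested and open points are after the trend of each library with span was removed. The open points lie above the filled ones for *msi2.S*, *prom1.L* and both copies of *gli3*, and below them for *fabp7.L*.

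Further lists put the members beside related genes. Of 61 tested rows of other radial glia and progenitor genes, 15 were lower and 18 higher in *ap3b2* CRISPants (24.6% and 29.5%), and 14 were lower and 20 higher in *eef1a2* CRISPants (23.0% and 32.8%). Over all genes tested these shares were 22.8% and 20.0% in *ap3b2* and 21.4% and 18.8% in *eef1a2* CRISPants, the values to which every list below is to be compared. The summed level of the list was 6007 to 6411 CPM in control, 5599 to 6091 in *ap3b2* CRISPant and 5638 to 6001 in *eef1a2* CRISPant libraries. This sum is weighted towards abundant rows and does not stand for the list as a whole. The median log2 fold change of its rows was 0.11 in *ap3b2* and 0.12 in *eef1a2* CRISPants, and more rows rose than fell. By the size of change in *ap3b2* CRISPants the leading genes all fell: *ednrb.L*, an endothelin receptor, by 1.23 on the log2 scale (SE 0.34, FDR 0.0140 by edgeR), *slc1a2.L* and *slc1a2.S*, the copies of a glial glutamate transporter, by 1.19 (FDR 0.00292) and 1.06 (FDR 0.00300), and *fgfr3.S*, a fibroblast growth factor receptor, by 0.99 (FDR 0.00292). In *eef1a2* CRISPants these fell by 1.35, 1.37, 1.03 and 0.93.

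Of 23 rows of Hedgehog pathway genes other than *gli3*, 10 were lower and 2 higher in *ap3b2* CRISPants (43.5% and 8.70%), with a median log2 fold change of -0.23, and 9 were lower and 2 higher in *eef1a2* CRISPants (39.1% and 8.70%). The leading genes were *cdon.L*, a co-receptor for Hedgehog ligands, which fell by 1.26 (SE 0.25, FDR 0.00383 by edgeR), *sufu.S* and *sufu.L*, copies of a negative regulator of Gli proteins, which fell by 1.03 (FDR 0.00347) and 0.88 (FDR 0.00369), and *ptch1.S*, the receptor that inhibits the pathway, which fell by 0.82 (FDR 0.00345). They include activators and inhibitors of the pathway.

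Of 37 tested rows of proliferation genes, 2 were lower and 11 higher in *ap3b2* CRISPants (5.41% and 29.7%, beside 22.8% and 20.0% of all genes), and 3 lower and 4 higher in *eef1a2* CRISPants (8.11% and 10.8%, beside 21.4% and 18.8%). The cyclin *ccnd2.S* fell by 1.24 in *ap3b2* CRISPants (SE 0.23, FDR 0.00326 by edgeR) and by 1.40 in *eef1a2* CRISPants (SE 0.17, FDR 0.00780). *ccnb2.S* and *ccne1.L*, a mitotic and a G1/S cyclin, rose by 0.66 (FDR 0.0223) and 0.61 (FDR 0.00461), and *aurkb.S*, a mitotic kinase, rose by 0.57 (FDR 0.0103), in *ap3b2* CRISPants. In *eef1a2* CRISPants *ccnb2.S* and *ccne1.L* rose by 0.50 and 0.48, while *aurkb.S* had a log2 fold change of 0.28 (FDR 0.243). No gene of the list passed in the direct comparison of the CRISPant groups.

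Of 26 rows of genes of committed neuronal progenitors, 4 were lower and 9 higher in *ap3b2* CRISPants (15.4% and 34.6%), and 5 lower and 9 higher in *eef1a2* CRISPants (19.2% and 34.6%). *dcx.L* and *dcx.S*, the copies of the microtubule protein doublecortin, fell by 1.49 (SE 0.29, FDR 0.00361 by edgeR) and 1.26 (SE 0.24, FDR 0.00338) in *ap3b2* CRISPants. The proneural gene *neurog3.S* rose by 0.91 (FDR 0.00300). In *eef1a2* CRISPants these 3 genes changed by -1.62, -1.44 and 0.82, all with an FDR below 0.05.

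Markers of other cells in the brain moved as well. Of the neuron list, 4 of 26 rows were lower and 9 higher in *ap3b2* CRISPants (15.4% and 34.6%, beside 22.8% and 20.0% of all genes), and 3 lower and 7 higher in *eef1a2* CRISPants (11.5% and 26.9%, beside 21.4% and 18.8%). Its summed level was 10031 to 10887 CPM in control, 10996 to 11591 in *ap3b2* CRISPant and 10578 to 11683 in *eef1a2* CRISPant libraries. Although more neuron rows rose than fell, the leading changes in *ap3b2* CRISPants were falls. *syt1.S* fell by 0.53 (FDR 0.00359 by edgeR), *elavl3.L* by 0.47 (FDR 0.00874), *rbfox3.L* by 0.46 (FDR 0.0184) and *rbfox3.S* by 0.44 (FDR 0.0215). Oligodendrocyte genes fell in 6 of 16 rows (37.5%) and rose in 0 in each comparison, with *mag.S*, a myelin glycoprotein gene, lower by 1.58 in *ap3b2* and by 1.66 in *eef1a2* CRISPants. Their summed level was 509 to 799 CPM in control, 405 to 612 in *ap3b2* CRISPant and 490.4 to 639.7 in *eef1a2* CRISPant libraries. Endothelial genes fell in 10 of 18 rows in *ap3b2* CRISPants (55.6%) and in 5 of 14 in *eef1a2* CRISPants (35.7%), and rose in 0, with *kdrl.L*, a receptor for vascular endothelial growth factor, lower by 1.70 and by 2.21. Their summed level was 144 to 180.4 CPM, 109 to 168 and 112 to 171 in the same order of groups. The filter on low counts left different endothelial rows in each comparison, so the endothelial shares cannot be set against each other. Among the rows called in *ap3b2* CRISPants, *flt1.L*, *flt1.S*, *esam.L*, *plvap.L* and *pecam1.S* were rare, at 2.99 CPM or less in every library. Rows this rare may have passed the filter through the controls, which favours falls among them. Between the CRISPant groups 0 of 13 tested endothelial rows passed. The part of these cells in the change of *prom1*, *msi2* and *nes* was not tested.

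Markers of tissues outside the brain were present at unequal levels, and the share of such cells was not measured. The lens and photoreceptor lists summed to at most 11.3 and 26.0 CPM in any library, and both copies of *rho*, the rod opsin gene, stayed at or below 0.155 CPM. The skeletal muscle list summed to at most 38.6 CPM. The cartilage list, with the matrix genes *matn1* and *acan* at 0.861 CPM or less but *col2a1.L* and *col2a1.S* at 42.3 to 79.2 CPM, summed to 158 to 176 CPM in control, 119.6 to 142 in *ap3b2* CRISPant and 119 to 170.5 in *eef1a2* CRISPant libraries. 2 of its 7 tested rows were lower in *ap3b2* CRISPants, and 1 of 6 was lower and 1 higher in *eef1a2* CRISPants. The epidermis list rose in 2 rows, *krt12.5.S* and *krt12.5.L*, in each comparison, 1.85 and 1.62 on the log2 scale in *ap3b2* CRISPants, and its summed level was 206 to 277 CPM in control, 228 to 286 in *ap3b2* CRISPant and 213 to 265 in *eef1a2* CRISPant libraries. Most of that sum came from the keratin genes *krt8.S* (85.2 to 125 CPM), *krt8.L* (64.7 to 96.0 CPM) and *krt18.L* (31.8 to 52.9 CPM), which were singled out for their level, while *tp63*, which defines basal epidermis, stayed at 0.477 CPM or less. Of the erythroid list 2 of 6 rows rose in each comparison, and its summed level was 594 to 770 CPM in control, 752 to 1037 in *ap3b2* CRISPant and 525 to 1168 in *eef1a2* CRISPant libraries. Microglial, ependymal and fibroblast lists had 0 of 6, 1 of 10 and 2 of 14 rows lower in *ap3b2* CRISPants and 1 of 6, 1 of 10 and 1 of 14 in *eef1a2* CRISPants, with 0 higher. The part of these cells in the members' values was not tested.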

How the data were processed

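Polyadenylated RNA was sequenced as stranded paired reads of 100 bases. Adapters were trimmed by the authors, alignment used STAR and the *X. laevis* v10.1 genome, and featureCounts assigned pairs to genes (reverse stranded, 1 count a pair). The authors deposited raw counts for 26807 genes, and log2 CPM values for 21328 genes, which served only to check the CPM computed here (largest difference 4.99e-09). Tool versions are not given in the sources used here.

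Groups follow the condition given for each sample in the labels. The counts were analysed with edgeR 4.0.16 in R 4.3.3. For each comparison only the libraries of its 2 groups were used, after removal of genes whose CPM was at most 1 in at least 4 of them. TMM scaling and the quasi-likelihood F test were applied, group was the only term, and p-values were adjusted by Benjamini-Hochberg over all genes tested. The SE is the log2 fold change divided by the root of F. The fit was tested on simulated data with independent libraries and a fixed dispersion. That checks the code and not the error rate in these data, where libraries within a group differed. Depth ranged from 36563581 to 46745977 counted pairs, and the SD between libraries includes counting error. Positions came from a RefSeq gene table of the same assembly, which matched 16 of the 18 members.

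The text names every member, the targeted genes, and for each other list up to 4 genes with the largest change among those called in *ap3b2* CRISPants, of which 1 is not reported here. The members and lists were chosen with earlier results of these data known. L shares were to be described only, and their exact permutation test was added after the values were seen.

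Alternatives were DESeq2 1.42.0, 2 other scalings, 3 other filters, 1 fit of all 14 libraries, the replicate number as a block, a term for replicates 1 to 3 against 4 and 5, replicates 1 to 3 alone, removal of the trend with gene span by offsets (natural spline with 5 degrees of freedom; genes without a span of their own or of the other copy uncorrected), L and S summed, and each library left out. The labels name no batch.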

Additional observations from a re-analysis of the deposited data

How the results depend on the processing

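In *ap3b2* CRISPants *prom1.L*, *msi2.L*, *msi2.S*, *nes.L*, *fabp7.L* and *msi1.L* passed under every alternative in which they were tested and with every library left out. The count of higher members there was 8 with replicates 1 to 3 alone in place of 5, and the count past 2-fold was 1 in place of 3 after removal of the span trend, with or without the replicate block. Leaving out 1 library gave 4 to 8 higher, 4 to 5 lower and 1 to 3 past 2-fold: 8 were higher without *ap3b2* replicate 4, and 1 was past 2-fold without control replicate 1, *ap3b2* replicate 1 or *ap3b2* replicate 3. In *eef1a2* CRISPants 2 members were higher and 3 past 2-fold with scaling by library size alone (5 and 1 as reported), where *sox2.S* (FDR 0.117), *sox3.S* (FDR 0.0575) and *msi1.L* (FDR 0.0668) missed the threshold. 0 were past 2-fold when all 14 libraries were fitted together, where *prom1.L* was filtered out, and 3 with the replicate block. With replicates 1 to 3 alone 1 was lower and 1 higher, and with the span trend removed and the replicate block 3 were higher. Leaving out 1 library gave 3 to 9 higher, 3 to 4 lower and 1 to 3 past 2-fold there: 9 were higher and 3 past 2-fold without *eef1a2* replicate 2, 8 and 3 without control replicate 4, and 3 were higher without control replicate 1 or 3 or *eef1a2* replicate 3 or 5. The cause of these shifts was not tested. The sign of *gli3.L* turned with the span trend removed, to 0.24 in *ap3b2* and 0.33 in *eef1a2* CRISPants (0.33 with the replicate block too). With L and S summed, *nes* was at -0.30 in *ap3b2* CRISPants. *nes.S* alone was at 0.15 there, and the sum also holds the counts of *nes.L*, which fell. Between the CRISPant groups all alternatives gave 0 calls.

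Replicate numbers did not pair the samples throughout. Deviations of same-numbered libraries correlated at -0.06 to 0.31 between *ap3b2* CRISPants and controls and at -0.22 to 0.36 between *eef1a2* CRISPants and controls. Between the CRISPant groups they correlated at -0.06 to 0.63. In each comparison 1 library correlated best with its own number. A term for replicates 1 to 3 against 4 and 5 gave 7 higher and 4 lower members in *ap3b2* CRISPants. In *eef1a2* CRISPants it gave 5 higher and 4 lower. With the replicate block 4 members were lower and 4 higher in each comparison with control. *sox3.L* in *ap3b2* CRISPants (FDR 0.0511) and *sox2.S* in *eef1a2* CRISPants (FDR 0.0594) then missed the threshold. At 14 to 57 counts per library, *prom1.L* in *ap3b2* CRISPants is the value most limited by depth.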
